A study of Mus musculus with 10 samples.

Results

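The proteases of endosomes and lysosomes and their inhibitor cystatin C were followed in mouse dendritic cells through 10 genes fixed by name: Ctsb, Ctsc, Ctsd, Ctsh, Ctsk, Ctsl, Ctss, Ctsz, the asparaginyl endopeptidase gene Lgmn, and Cst3. All 10 were found among the 41813 genes of the tables and all 10 passed the filter on low counts, as members of 13946 genes tested. RNA-seq was available for 3 activated and 3 non-activated libraries of bone marrow-derived dendritic cells, recorded as positive for CD11c with high MHC class II. The series' design text gives lipopolysaccharide (LPS) to the cells of both groups, peptide OVA323-339 to the activated cells alone as far as the titles and that text can be joined, and 24 h of culture with CD4+ OT-II T cells to both. The sample labels record LPS stimulation for the activated libraries and none for the others, so whether peptide, LPS or both separates the groups cannot be told apart here. No strain, age or sex was recorded, and nothing states that the replicates were separate mice or cultures, so p-values measure the spread between these libraries. Chromatin samples, 4 in number, were not analysed here.

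Cathepsins are made as inactive precursors, carried to endosomes and activated by acid and by each other. Most members are cysteine proteases of the papain family, Ctsd is an aspartic protease, and legumain is a cysteine protease of a separate family that cuts after asparagine. In antigen-presenting cells these enzymes cut internalised protein into peptides and degrade the invariant chain that blocks the MHC class II groove. Cathepsin S is known for the last step of that degradation in dendritic cells, and cystatin C inhibits papain-like cathepsins and, through a separate site, legumain.

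Activated cells held more Ctsc RNA and less Lgmn RNA than non-activated cells, while Ctsb, Ctsd and Ctsz, among the genes with the most RNA, passed the test in neither fit. Ctsc, the dipeptidyl peptidase that activates granule serine proteases, rose 1.70-fold, and Lgmn fell to 0.559 of the non-activated level. In edgeR's quasi-likelihood test 1 of the 10 genes was higher, 1 lower and 8 did not pass, against 15.9% of all tested genes higher and 11.7% lower (27.6% in either direction). Libraries of the 2 groups that carried the same replicate number deviated together, and with that number as a block Ctss and Ctsl passed too, both lower. The block gave 1 higher and 3 lower of 10, against 20.0% higher and 17.2% lower of all genes (37.2% in either direction). Both shares are near those of the background, with so few genes.

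The start regions of the genes that the results turn on are shown first, as a description of the letters there. RefSeq promoter windows on GRCm38.p6, from 250 bases before to 50 after a transcript start, were found for 8 of the 10 genes, Lgmn having a pair. TFEB and its relatives, MITF among them, bind sites built around CACGTG, a palindrome read alike on both strands. It occurred in 3 of the 9 windows, those of Ctsd, Ctsl and the downstream start of Lgmn, and in 7.15% of all 32851 windows. The longer TCACGTGA, which contains it, occurred in Ctsd and in 0.974% of windows. The first sequence is the Lgmn window at chr12:102439043-102439342 and the second the Ctsd window at chr7:142387778-142388077, both on the minus strand, with CACGTG in capitals. The third is the Ctsc window at chr7:88277835-88278134 on the plus strand, with capitals for GAGGAA, the core bound by PU.1 and its relatives, found here on the other strand as TTCCTC.
Lgmn, downstream start: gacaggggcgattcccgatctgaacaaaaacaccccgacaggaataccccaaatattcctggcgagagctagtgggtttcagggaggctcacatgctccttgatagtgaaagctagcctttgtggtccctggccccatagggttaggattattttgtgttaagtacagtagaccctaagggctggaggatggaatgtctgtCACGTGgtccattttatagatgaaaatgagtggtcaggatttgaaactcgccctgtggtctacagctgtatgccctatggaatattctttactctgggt
Ctsd: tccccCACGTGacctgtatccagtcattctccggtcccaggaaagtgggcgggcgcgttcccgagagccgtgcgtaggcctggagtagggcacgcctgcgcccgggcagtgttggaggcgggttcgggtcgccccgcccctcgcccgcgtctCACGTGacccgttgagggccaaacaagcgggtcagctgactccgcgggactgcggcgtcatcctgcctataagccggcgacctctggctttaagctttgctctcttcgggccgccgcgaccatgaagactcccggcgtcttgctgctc
Ctsc: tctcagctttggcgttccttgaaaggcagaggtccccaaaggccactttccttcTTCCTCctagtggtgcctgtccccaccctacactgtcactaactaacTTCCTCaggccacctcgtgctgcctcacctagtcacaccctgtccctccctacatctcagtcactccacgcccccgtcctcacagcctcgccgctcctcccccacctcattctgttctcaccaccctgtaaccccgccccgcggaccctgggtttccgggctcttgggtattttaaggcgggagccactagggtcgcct
In the Lgmn window CACGTG lies at -49 to -44 from the start base, counted as 0, and in Ctsd at -245 to -240 and -98 to -93. In Ctsl it lies at -236 to -231. The Ctsl window, chr13:64370471-64370770 on the minus strand, falls wholly within the RefSeq gene (64361890 to 64370772). The upstream Lgmn window, chr12:102439679-102439978, held none of the motifs searched on both strands, which are those named here. GAGGAA was found in the windows of Ctsc, Ctsk, Ctss and Cst3 and in 28.3% of all windows. The interferon-type letters GAAANNGAA occurred in Ctss alone among the genes, at -21 to -13, and in 8.56% of windows, and TTCNNNGAA in Ctsc alone and in 8.30%. TATAAA was present in the Ctss window and the downstream Lgmn window, and in 13.6% of all. Of the 3 genes with CACGTG only Lgmn passed the test with group alone. Ctsd, the one with TCACGTGA, had a log2 fold change of 0.02, and no binding was measured.

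Levels per transcript length differed widely between the genes. In deposited TPM (a share of all transcripts, scaled to a fixed total and corrected for length) Cst3 led the activated libraries with 4730 ± 593 (SD, n = 3), the 21st highest mean of all genes, followed by Ctsd with 3851 ± 863 and the carboxypeptidase Ctsz with 3767 ± 754. Ctsb, an endo- and exopeptidase, stood at 2786 ± 1087 and Ctss at 2593 ± 537. A second tier held Ctsc at 664 ± 80.2, the aminopeptidase Ctsh at 556 ± 92.8, the endopeptidase Ctsl at 333 ± 144 and Lgmn at 271 ± 48.8. Ctsk, the collagen-cutting enzyme best known from osteoclasts, came last at 27.6 ± 2.43.

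The non-activated libraries had the same upper 3 in TPM, with Cst3 at 3868 ± 375, Ctsd at 3840 ± 485 and Ctsz at 3647 ± 472, and Ctss at 3358 ± 354 before Ctsb at 3313 ± 783. Below them came Ctsh at 564 ± 81.9, Lgmn at 487 ± 60.5, Ctsl at 425 ± 91.7, Ctsc at 379 ± 15.1 and Ctsk at 32.4 ± 3.35. In each group neighbours in this order overlapped in their library ranges at 7 of 9 steps. The exceptions were the step from the upper 5 to the second tier and the step down to Ctsk. Ctsc stood lowest of the second tier in non-activated cells and highest in activated cells, going from 375th to 189th among all genes, while Lgmn went from 294th to 527th.

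**Figure D1:**
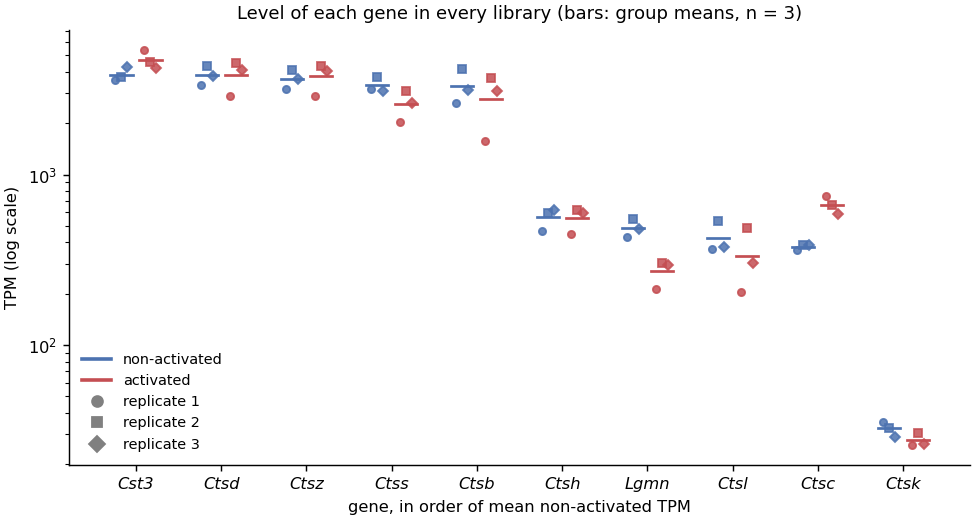
Deposited TPM on a log scale for each of the 10 genes in all 6 libraries, with blue for non-activated, red for activated, marker shape for the replicate number and bars for group means (n = 3). The upper 5 genes sit at 1575 TPM or more in every library, Ctsk at 35.6 or less, and the colours separate clearly for Lgmn and Ctsc but for Ctss only by 3109 against 3111 TPM.

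Beside the lineage markers, the libraries looked alike in depth and apart in a T cell receptor gene. Summed expected counts ran from 21338012 to 27404937, and the smallest count of any of the 10 genes was 566 (Ctsk in activated replicate 2), so counting error was small beside the spread between libraries. Of 11 dendritic cell markers 10 were above 1 CPM (a gene's share of the library's counts on the usual CPM scale, with TMM factors) in all libraries, the exception being Cd209a with 0 in 5 of them, and their sum was 6392 to 7951 CPM in activated and 2724 to 3107 in non-activated cells. Of the 10 tested 5 were higher, 1 lower (Clec10a) and 4 not called (Itgax, Flt3, Cd83 and Batf3), against 15.9% and 11.7% of all genes, and most of the difference in the sum lay in the migration genes Fscn1 (3122 against 533 CPM) and Ccr7 (1798 against 638 CPM). Itgax, which encodes CD11c, had 198 to 442 and 295 to 437 CPM. Of 14 macrophage and monocyte markers 13 were above 1 CPM in all libraries, Vsig4 being at 0 in all, and the sums were 2926, 4424 and 3347 CPM in activated replicates 1 to 3 and 3653, 4271 and 3274 in non-activated ones. Markers of T cells summed to 7585 and 7582 CPM in activated and non-activated replicate 1, against 51.1 to 69.0 in the other 4 libraries. Nearly all of it was Trac, the T cell receptor alpha constant gene, at 7420 and 7444 CPM, while Cd3e had 1.90 and 0.152 CPM in the same libraries. Of the 16 T cell markers 12 had a count in all libraries. B cell, neutrophil and NK cell sums were at most 5.84, 0.568 and 24.4 CPM. Of 8 tested T cell markers 2 were called higher, Cd247 and Lck, near the 15.9% of all genes, both at low levels. The replicate 1 pair therefore stood apart, the part of T cell RNA in the results was not tested, and the results are also given without that pair, which left the same counts of 1 higher and 1 lower among the 10 genes.

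Lgmn, whose product also cuts and activates other cathepsins, was the gene with the smallest adjusted p. It measured 260, 362 and 336 CPM in activated replicates 1 to 3 and 527, 649 and 538 CPM in the non-activated ones. All activated libraries lay below all non-activated ones, with replicate 1 lowest and replicate 2 highest in each group. The log2 fold change was -0.84 ± 0.14 (SE; edgeR adjusted p = 0.00333). Within replicate numbers the log2 ratios were -1.02, -0.84 and -0.68. Without both replicate 1 libraries it was -0.78 ± 0.11 (adjusted p = 0.00261), and the call held in all alternatives tried, with adjusted p of at most 0.0333.

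Ctsc measured 1159, 956 and 832 CPM in activated replicates 1 to 3 and 576, 602 and 558 CPM in the non-activated ones. The groups did not overlap, and the spread was wider in activated cells (SD of 165 against 22.1 CPM, n = 3). The log2 fold change was 0.76 ± 0.13 (SE; edgeR adjusted p = 0.00336), with ratios of 1.01, 0.67 and 0.58 within replicate numbers. It was 0.61 ± 0.11 (adjusted p = 0.00615) without both replicate 1 libraries, and the call held in every alternative tried, the highest adjusted p being 0.0217. As a ratio of TPM, which corrects for length, Ctsc over Lgmn was 3.47, 2.18 and 1.99 in the activated and 0.839, 0.704 and 0.805 in the non-activated libraries. This ratio was formed after both values had been seen and is a description.

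Ctss is the invariant chain protease of dendritic cells and B cells. It had 1681, 2508 and 2039 CPM in activated and 2656, 3004 and 2364 CPM in non-activated replicates 1 to 3. The groups overlapped in CPM, activated replicate 2 lying above non-activated replicate 3, and in TPM the same libraries stood at 3109 and 3111, just apart. In CPM each activated library was lower than its same-numbered partner. The log2 fold change of -0.37 ± 0.16 (SE) did not pass (edgeR adjusted p = 0.129), and with the replicate block it was -0.38 ± 0.11 (adjusted p = 0.0245). Ctss also passed in DESeq2 (adjusted p = 0.0386) and without activated replicate 2 (log2 -0.54, edgeR adjusted p = 0.0361), and over all alternatives its adjusted p ran from 0.0245 to 0.409. Without both replicate 1 libraries it was -0.26 ± 0.15 (adjusted p = 0.273).

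Ctsl, which does in thymic epithelium what Ctss does in dendritic cells, had 137, 301 and 184 CPM in activated and 251, 349 and 242 CPM in non-activated replicates 1 to 3. Activated replicate 2 lay above 2 of the non-activated libraries, and all 3 pairs were lower in the activated member. The log2 fold change of -0.44 ± 0.27 (SE) did not pass (edgeR adjusted p = 0.268), while the replicate block gave -0.49 ± 0.12 (adjusted p = 0.0133). Without activated replicate 2 it was -0.82 (edgeR adjusted p = 0.0175), and over all alternatives the adjusted p ran from 0.0133 to 0.593. Without both replicate 1 libraries it was -0.30 ± 0.24 (adjusted p = 0.418).

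**Figure D2:**
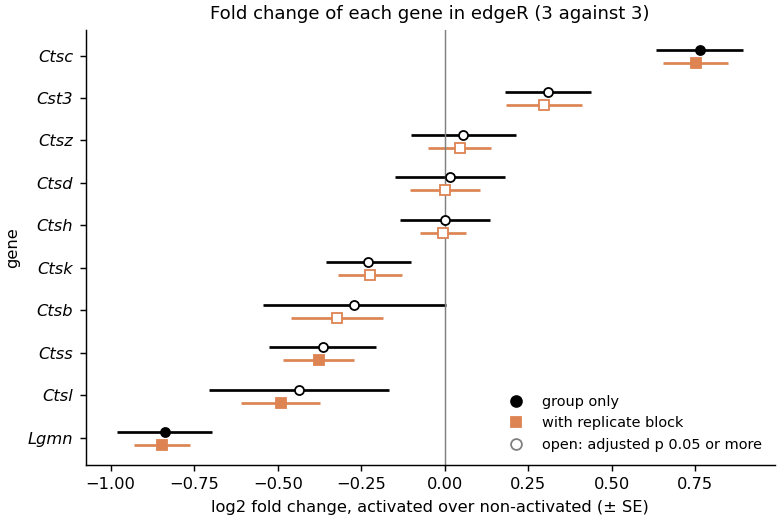
The log2 fold change of each gene, activated over non-activated, with its SE, from edgeR with group only (black circles) and with the replicate block (orange squares), where filled markers have an adjusted p under 0.05. Lgmn at -0.84 and Ctsc at 0.76 are filled in both fits, Ctss and Ctsl with the block only.

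Cst3, the secreted inhibitor, had 2571, 2131 and 1895 CPM in activated and 1721, 1719 and 1887 CPM in non-activated replicates 1 to 3. The groups did not overlap in CPM, by a margin of 1895 against 1887, but did in TPM, where activated replicate 3 had 4232 and non-activated replicate 3 had 4293. In CPM 3 of the 10 genes did not overlap between groups (Ctsc, Lgmn and Cst3), against 44.7% of all tested genes. The Cst3 log2 fold change of 0.31 ± 0.13 (SE) did not pass (edgeR adjusted p = 0.114), nor did it with the block (0.0737) or without both replicate 1 libraries (log2 0.14 ± 0.11, adjusted p = 0.431).

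Ctsb had 2384, 5269 and 4201 CPM in activated and 4007, 5964 and 4332 CPM in non-activated replicates 1 to 3, the widest range in CPM of the 10 genes. Each activated library was below its partner, with log2 ratios of -0.75, -0.18 and -0.04 in pairs 1 to 3, and the groups overlapped. Its log2 fold change was -0.27 ± 0.27 (SE; edgeR adjusted p = 0.507; 0.101 with the block).

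Ctsd, Ctsz and Ctsh showed the smallest differences. Ctsd ran from 3686 to 5636 CPM with activation and from 4327 to 5333 CPM without, with a log2 fold change of 0.02 ± 0.17 (SE; edgeR adjusted p = 0.956). Ctsz ran from 2578 to 3757 CPM in activated and from 2837 to 3536 CPM in the others, at 0.06 ± 0.16, and Ctsh from 247 to 338 and from 261 to 323 CPM, at 0.00043 ± 0.13. In all 3 genes the activated range enclosed the non-activated one. Ctsk, at 24.2, 27.8 and 23.2 CPM against 33.5, 29.7 and 24.9, was lower in all 3 pairs and did not pass (log2 -0.23 ± 0.13; edgeR adjusted p = 0.221; 0.106 with the block). It lies 17398 bases before Ctss on chromosome 3 (Ctsk at 95499210 to 95509387, Ctss at 95526786 to 95556405, RefSeq on GRCm38.p6).

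**Figure D3:**
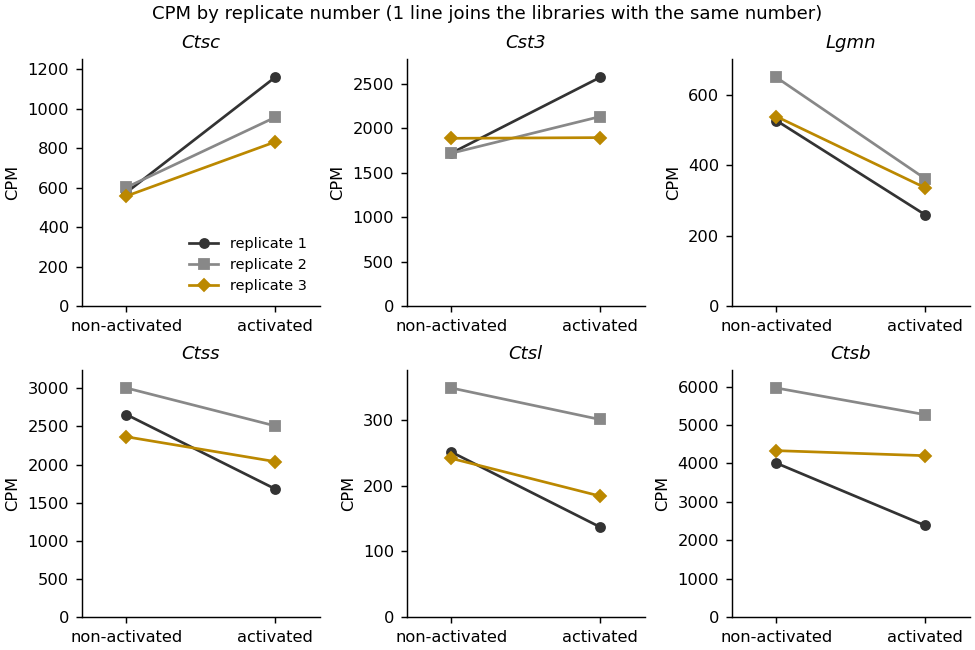
CPM of Ctsc, Cst3, Lgmn, Ctss, Ctsl and Ctsb, with a line from the non-activated to the activated library of each replicate number. All 3 lines slope down for Lgmn, Ctss, Ctsl and Ctsb and up for Ctsc and Cst3, the replicate 3 line of Cst3 by only 0.0060 on the log2 scale.

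Ctsb, Ctsd, Ctsh, Ctsl, Ctss, Ctsz and Lgmn varied together between libraries of a group. Ctsc and Cst3 ran against them in activated libraries, and Ctsk followed them only in part. Among non-activated libraries Ctsc, like those 7 genes, was highest in replicate 2, by 0.058 above its group mean of log2 CPM. Cst3 was highest there in replicate 3, by 0.089. Activated replicate 1 was the lowest activated library for 7 of the 10 genes, namely Ctsb, Ctsd, Ctsh, Ctsl, Ctss, Ctsz and Lgmn, and the highest for Ctsc and Cst3. Replicate 2 was the highest library of its group for 8 genes in activated and 8 in non-activated cells. Ctsb and Ctsl deviated most, Ctsb at -0.65 from its group mean of log2 CPM in activated replicate 1 and Ctsl 0.61 above in replicate 2. Ctsc and Cst3 lay 0.25 and 0.24 above in activated replicate 1. Lyz2, a macrophage and monocyte marker, had 574, 1450 and 1057 CPM in activated replicates 1 to 3 and 1023, 1568 and 1193 in non-activated ones, and the marker sum given above was likewise lowest in activated replicate 1 and highest in replicate 2 of each group. The part of such cells in these values was not tested. In bulk RNA fewer cells of a type and less RNA per cell cannot be told apart.

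**Figure D4:**
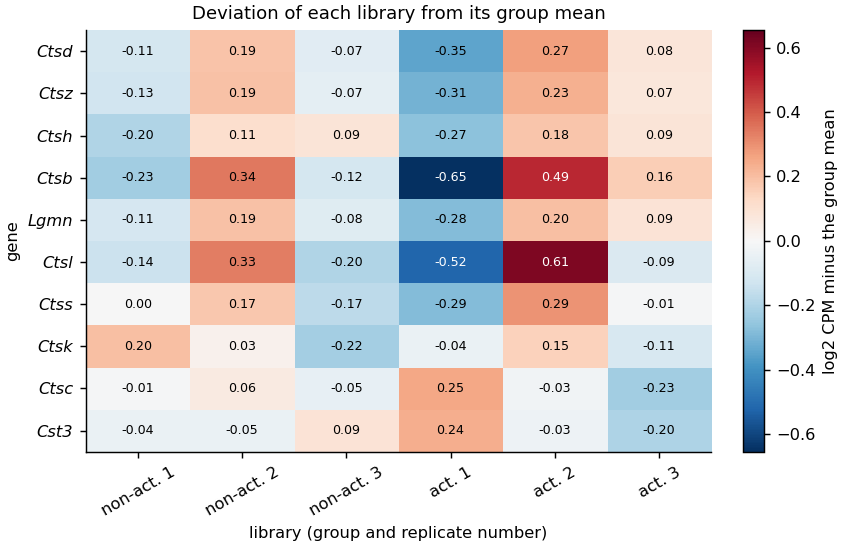
Log2 CPM of each gene (rows) in each library (columns) minus the mean of its group, red above and blue below, with the value in each cell. Activated replicate 1 is blue for Ctsb, Ctsd, Ctsh, Ctsl, Ctss, Ctsz and Lgmn and red for Ctsc and Cst3, and replicate 2 is red in both groups for most proteases.

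Summed over the 9 protease genes, TPM was 11048, 17764 and 15732 in activated and 14070, 18511 and 15550 in non-activated replicates 1 to 3, or 1.48% ± 0.34 and 1.60% ± 0.23 (SD, n = 3) of all transcripts. The groups overlapped. The sum over Cst3 was 2.05, 3.89 and 3.72 in activated and 3.93, 4.97 and 3.62 in non-activated libraries. Activated replicate 1 held both the lowest protease sum and, with 5386 TPM, the highest Cst3 level. These sums carry no test.

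Transcript usage was not tested, and only mean lengths are described here. The mean transcript length that the tables give, weighted by the isoforms found, varied between libraries for 7 of the genes. It did not overlap between groups for 2 of them, Ctsc and Ctsl, against 12.8% of all tested genes whose length varied. For Ctsc it was 2395, 2286 and 2341 bases in activated and 2439, 2465 and 2413 in non-activated replicates, and for Ctsl 1127, 1077 and 1103 against 1149, 1148 and 1170. On TPM, which takes these lengths into account, the log2 fold change of Ctsc was 0.80 and that of Ctsl -0.42 (log2 of TPM plus 1). Counts were whole in all libraries for Ctsk, Ctss, Ctsz and Cst3. The other 6 had fractional counts in some libraries, Ctsd and Ctsl in all 6, which this kind of table holds where reads match more than one gene.

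Other lysosomal peptidases were taken from a list of 23, of which 11 were tested, with 0 higher, 3 lower and 8 not passing, against 15.9% higher and 11.7% lower of all tested genes, and a median log2 fold change of -0.41 beside 0.0064 for all tested genes and -0.11 for the 10 genes. The prolylcarboxypeptidase Prcp fell from 157 ± 6.21 to 87.4 ± 5.83 CPM (SD, n = 3), the aspartic protease Napsa from 199 ± 18.3 to 132 ± 24.3 and the carboxypeptidase Cpq from 7.94 ± 1.37 to 4.39 ± 1.15. Napsa and Cpq lost their calls when non-activated replicate 2 was left out (edgeR adjusted p = 0.0507 and 0.0884) or replicate 3 was (0.056 and 0.0981), so that 1 was lower in either case. With the replicate block 7 were lower, against 17.2% of all tested genes. For this and the lists that follow, counts of so few genes are a description, and whether any is particular to its list was not tested.

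Of 6 tested protease inhibitors 2 rose, 0 fell and 4 did not pass (median 0.08; with the block 2 higher and 1 lower), against 15.9% higher and 11.7% lower of all genes (20.0% and 17.2% with the block). Serpinb9, best known as an inhibitor of granzyme B and not of cathepsins, went from 132 ± 23.9 to 736 ± 158 CPM, and its relative Serpinb6b from 52.6 ± 3.70 to 103 ± 10.7. Cstb, the cytosolic inhibitor of papain-like cathepsins, stood at 177 ± 19.9 against 223 ± 30.0 CPM (edgeR adjusted p = 0.0787). The replicate block called Cstb lower (adjusted p = 0.00699).

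Among genes of class II presentation 1 of 14 was higher, 1 lower and 12 did not pass (median -0.18), against 27.6% of all genes called in either direction. With the block 2 were higher and 5 lower, against 37.2%. Cd74, the invariant chain itself, had 6852 ± 1283 CPM in activated and 7802 ± 640 in non-activated cells (edgeR adjusted p = 0.398). The lysosomal thiol reductase Ifi30, at 238 ± 25.3 and 248 ± 17.1 CPM, and H2-Ab1, at 2780 ± 512 and 2906 ± 338, did not pass either. March8, a ubiquitin ligase of membrane proteins, fell from 83.3 ± 1.69 to 61.3 ± 2.01 CPM (edgeR adjusted p = 0.00249). The class II transactivator Ciita rose (242 ± 56.1 against 158 ± 20.1 CPM), a call lost without any library but activated replicate 1 (edgeR adjusted p of 0.0591 to 0.0972 in those 5 fits). Leaving out activated replicate 1 gave 2 higher, leaving out activated replicate 2 or non-activated replicate 1 gave 2 lower, and leaving out the replicate 1 pair gave 2 of each.

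Of 10 transcription factors and regulators of the TFEB family 1 rose, 5 fell and 4 did not pass (median -0.28), against 15.9% higher and 11.7% lower of all genes. With the block 1 was higher and 6 lower, against 20.0% and 17.2%. Tfeb fell from 15.3 ± 1.22 to 9.10 ± 0.75 CPM (edgeR adjusted p = 0.0027). Fnip2, a partner of folliculin, fell from 191 ± 19.5 to 123 ± 6.01 CPM, and the Rag GTPase genes Rragd and Rragc from 13.3 to 7.24 and from 129 to 104, Rragc not without non-activated replicate 2 (edgeR adjusted p = 0.0764). Mitf, a relative of Tfeb, rose from 48.5 ± 5.65 to 63.3 ± 5.10 CPM, a call lost without replicate 2 or replicate 3 of either group (edgeR adjusted p of 0.0831 to 0.105). Without non-activated replicate 2 the lower count was 3.

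Of 12 genes of enzyme tagging and sorting 0 rose, 3 fell and 9 did not pass (median -0.09). With the block 2 were higher and 4 lower. Of all tested genes 15.9% were higher and 11.7% lower, and with the block 20.0% and 17.2%. The adaptor Gga2 fell from 162 ± 7.68 to 88.6 ± 4.17 CPM, the sorting receptor Sorl1 from 110 ± 7.72 to 79.2 ± 5.01 and Gnptg, a subunit of the enzyme that starts mannose 6-phosphate tagging, from 21.6 ± 1.34 to 15.0 ± 0.89. Of 13 lysosomal membrane genes 0 rose, 4 fell and 9 did not pass (median -0.26), and with the block 7 were lower. These counts stand beside the same shares of all tested genes. Lamp1 fell from 1130 ± 48.3 to 788 ± 85.9 CPM, Laptm5 from 1342 ± 77.5 to 885 ± 137, the calcium channel gene Mcoln1 from 80.7 ± 4.98 to 59.5 ± 9.75 and the cystine exporter gene Ctns from 31.2 ± 4.08 to 22.7 ± 3.81. Without non-activated replicate 2 or 3 the number lower was 2, and without activated replicate 2 it was 7. Mcoln1 was not called without either of those non-activated libraries (edgeR adjusted p = 0.0935 and 0.0889). Among the fits that left out a single library, Ctns held only without activated replicate 2 (edgeR adjusted p of 0.062 to 0.143 in the other 5). Of the called genes named from these lists, Cpq, Ciita, Mitf, Tfeb, Sorl1, Mcoln1 and Ctns did not pass in limma on log2 of TPM plus 1. Their limma adjusted p ran from 0.0623 (Cpq) to 0.202 (Sorl1).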

How the data were processed

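RNA was sequenced as single reads of 60 nt from NEBNext Ultra libraries, per the labels' protocols. Per the file headers the authors deposited gene tables in RSEM's layout with an expected count, TPM and FPKM per gene; FPKM was not used. The submitters' processing notes name GRCm38 and tools without roles; the aligner of the RNA reads was not named in them. Gene length (another value per gene) is also deposited. Symbols were matched for 41597 of 41813 genes.

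Expected counts were rounded and tested across all 13946 genes that passed filterByExpr with edgeR 4.0.16 (TMM, glmQLFTest, group only), Benjamini-Hochberg adjusted with a threshold of 0.05. SE is the log2 fold change over the root of F. Alternatives were DESeq2 1.42.0, RLE factors, no filter, limma 3.58.1 on log2 of TPM plus 1 or 0.1, a replicate block and each library left out. Leaving out both replicate 1 libraries was added after seeing the data. The fits were tested on simulated data. The planned comparison of protein sequences was not run. Titles share replicate numbers; same-numbered libraries deviated together from their group means (r = 0.398, 0.313 and 0.187 over genes, against -0.315 to 0.0402 for other pairs). The pairing thus comes from the data, and what a number marks is not recorded. The genes and lists were chosen with earlier results of these data known. Named genes were all 10 members and, per list, up to 4 called in each direction with the smallest adjusted p, plus Cd74, H2-Ab1, Ifi30, Cstb and Tfeb, as well as the 3 genes most like the member with the smallest adjusted p.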

Additional observations from a re-analysis of the deposited data

How the results depend on the processing

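Lgmn and Ctsc kept their direction and their call in all 14 alternatives. The count of called members was 2, and it was 4 with the replicate block (3 lower); leaving out single libraries gave 2 to 4 (1 to 3 lower), the 4 coming without activated replicate 2. DESeq2 called 1 higher and 2 lower. Over all genes, limma on unfiltered log2 of TPM plus 1 called 1882 (1163 higher, 719 lower) against 3848 (2216 and 1632), and leaving out single libraries gave 1061 to 1673 lower, the fewest without non-activated replicate 2; the causes were not tested. For the 36 named genes and 14 alternatives, 447 results stayed on their side of the threshold, 49 called ones lost it, 8 gained it and none turned direction past it. Except for Ctsl, Ctss and Cstb, the replicate block changed no call among the 36 named genes. With a single library left out, the mean protease sum ran from 13390 to 16748 TPM in activated cells and from 14810 to 17031 in non-activated cells. The mean ratio of that sum to Cst3 ran from 2.88 to 3.80 in activated cells and from 3.77 to 4.45 in non-activated cells. With 3 libraries a group an exact permutation test cannot go below 0.1, so sums were not tested, and intervals of 2 libraries a group rest on few degrees of freedom.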

Other observations

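Across 13907 other tested genes with a symbol, the 3 whose log2 CPM was most like that of Lgmn over the 6 libraries were Mindy1 (Pearson r = 0.998), a deubiquitinase gene, Hook2 (r = 0.997), a microtubule linker gene, and Rab44 (r = 0.997), a large Rab GTPase gene. Such values are a description, since 424 genes had r above 0.95 and all share the same libraries and group difference. Mindy1 went from 110, 128 and 111 CPM in non-activated replicates 1 to 3 to 65.3, 81.3 and 76.1 in activated ones. Hook2 went from 35.8, 43.4 and 35.8 to 21.6, 26.9 and 25.7 CPM, and Rab44 from 55.3, 77.1 and 58.6 to 22.7, 35.9 and 34.3 CPM. The call of Hook2 (edgeR adjusted p = 0.00525) was lost in limma on log2 of TPM plus 1 (adjusted p = 0.0831). In all 3 genes, as in Lgmn, the groups did not overlap, and replicate 2 was the highest library of its group. They were picked for likeness to Lgmn over these same libraries, so this is no separate result. Of all tested genes 44.7% did not overlap in CPM.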
